A study of Mus musculus with 18 samples.

Results

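In mouse embryos whose FoxA2 lacks an α-helix, cells with high FoxA2 were compared with cells without detectable FoxA2, 3 sorted libraries against 3. The comparison covered all 24498 genes of the deposited table, of which 14711 passed a filter on low values and were tested. FoxA2 is a forkhead transcription factor that can bind its sites in closed chromatin. In the gastrulating mouse embryo it marks the node, the notochord and prechordal plate that arise from it, and the definitive endoderm, and embryos without it do not form a node or notochord. The node is a pit of cells with 1 cilium each, whose beating sets up the left side of the body, and its cells send Shh and BMP antagonists to their neighbours.

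The compared cells came from embryos at embryonic day 7.5 that were homozygous for the FoxA2-∆Hx-tagRFP allele, made by recombinase-mediated cassette exchange in embryonic stem cells. In it 10 residues of an α-helix of FoxA2 are missing, and the red fluorescent protein tagRFP is joined by a linker to the end of FoxA2. No embryo of any group carried untagged FoxA2: the WT libraries used below for reference came from homozygotes for the same tagged allele with the helix intact. The mice had a mixed C57Bl6/J x CD-1 background, females were superovulated with PMSG and HCG, and the embryos were not sexed. For each sort, cells of about 10 homozygotes were pooled once the extra-embryonic portion had been cut away, and gates were set on tagRFP against untagged and heterozygous embryos. High cells, above heterozygous cells in brightness, are called ΔHx High here, and cells without tagRFP signal ΔHx Neg; cells of the Mid gate in between are given only for reference. Each sort took 2500 to 5000 cells, RNA of 1000 cell equivalents entered a SMART-Seq2 library, and 75 bases were read from 1 end. Labels call the samples biological replicates, so that p-values measure the spread between pooled sorts, not between single embryos. In bulk RNA, fewer cells of a type and less RNA per cell cannot be told apart.

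Between 13742922 and 17194136 reads lay in genes in the 6 libraries. A read was found for 15649 genes in ΔHx High replicate 3, the fewest, and for up to 17702 in the others. The ribosomal RNA gene Rn45s took 27.9 to 37.5% of these reads in High and 27.9 to 30.1% in Neg. Values are read counts divided by a size factor for each library (normalised read counts), and changes were computed as log2(value + 1), so that changes of low genes come out too small. Calls rest on limma's moderated test, two-sided, with a threshold of 0.05 on the p adjusted over all 14711 genes. The spread was estimated from all 18 libraries of the series, also those outside this comparison. Of 5 sex-linked genes 0 were called, and Xist was 1535, 1428 and 1836 in High and 1105, 1074 and 2062 in Neg.

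Foxa2 itself, the gene whose protein set the gates (chromosome 2, 148042877 to 148046969, minus strand, mm10), stood at 1848, 2078 and 2385 in the 3 High libraries and at 62.5, 55.1 and 43.4 in the 3 Neg libraries. All High values lay far above the Neg values, and none of the libraries was at 0 (log2 5.28, SE 0.28, adjusted p = 5.38e-11). This checks the gate only: a count over the whole gene does not show the deletion of the helix. Of the tested genes 3160, or 21.5%, were higher in High and 3103, or 21.1%, were lower; 1018 were at least 4-fold higher, 6.92% of those tested, and 528 at least 4-fold lower, 3.59%. Without ΔHx High replicate 3 the calls were 2983 higher and 2807 lower. All 3 High libraries lay above all 3 Neg libraries for 27.6% of the tested genes and below them for 27.1%. A list with 21.5% of its genes called higher or 21.1% called lower is therefore at the background, and each list below is to be read against these shares. The median log2 change of all tested genes was 0.0062.

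Because 42.6% of all genes were called, the lists are described by their counts and medians. The lists with the largest shares called higher, 73.9 to 100%, were those of the node and notochord, epithelial junctions, ciliary motility, anterior mesendoderm, cilia transport, cilia regulators and definitive endoderm, and those with the largest shares called lower, 77.3 to 95.8%, were those of DNA replication, Hox genes, lateral and cardiac mesoderm, blood and endothelium, and nascent and paraxial mesoderm, as the plot of called shares by list shows.

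**Figure D1:**
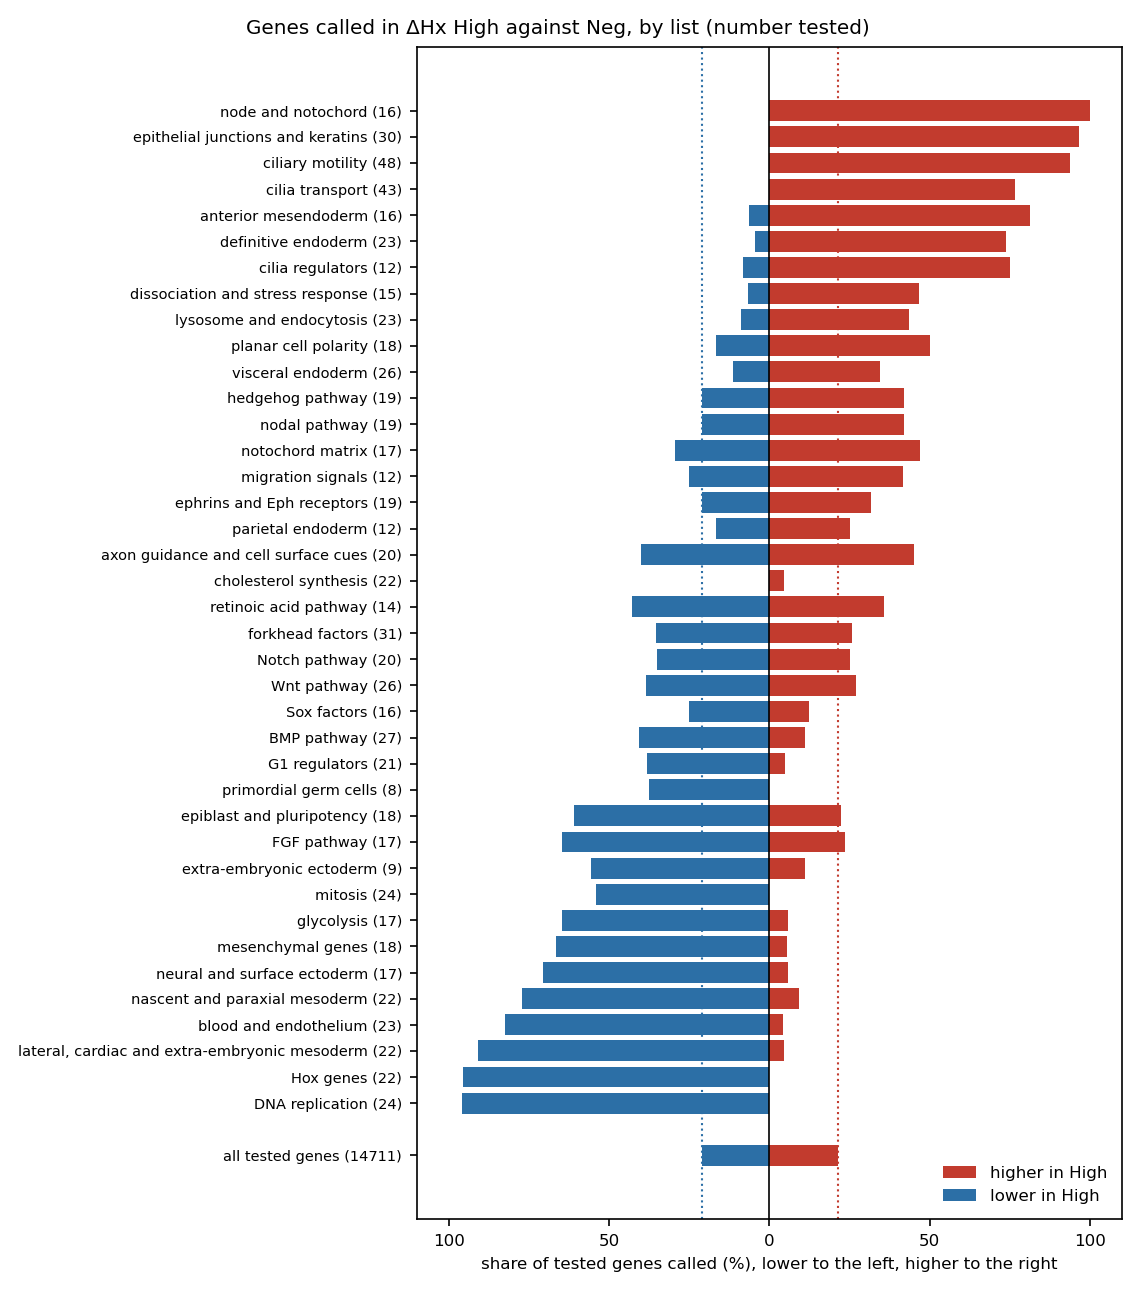
Share of the tested genes of each list called higher (red, to the right) or lower (blue, to the left) in ΔHx High than in ΔHx Neg cells, in percent, with the number tested in parentheses and the share among all 14711 tested genes as dotted lines and as the bottom bar. All 16 node and notochord genes were higher, and 23 of 24 DNA replication genes were lower.

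The promoters of 5 genes that the results below turn on were read for forkhead and RFX motifs, since FoxA2 and Foxj1 are forkhead factors and the RFX factors switch on cilia genes. Shown are the 250 bases before the start, 5′ to 3′ on the gene's strand, from RefSeq on GRCm38.p6, in lower case with motif matches in capitals. The forkhead motifs searched on both strands were TGTTTAC and TGTTTGC, and the RFX motifs were the X-box, whose arms GTNNCC and GGNAAC stand 2 bases apart, and GTTGCCA, a form of 1 arm that may overlap the X-box. Foxa1 and Noto are genes of the node, Tekt4 and Drc1 encode parts of the moving axoneme, and Ift57 carries cargo into cilia.
Foxa1, chr12:57546112-57546361, minus strand: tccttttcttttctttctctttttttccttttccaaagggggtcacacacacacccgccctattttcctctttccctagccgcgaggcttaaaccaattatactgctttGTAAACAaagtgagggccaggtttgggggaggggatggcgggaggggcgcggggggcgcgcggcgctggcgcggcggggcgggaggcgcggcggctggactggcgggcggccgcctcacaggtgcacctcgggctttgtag
Noto, chr6:85423636-85423885, plus strand: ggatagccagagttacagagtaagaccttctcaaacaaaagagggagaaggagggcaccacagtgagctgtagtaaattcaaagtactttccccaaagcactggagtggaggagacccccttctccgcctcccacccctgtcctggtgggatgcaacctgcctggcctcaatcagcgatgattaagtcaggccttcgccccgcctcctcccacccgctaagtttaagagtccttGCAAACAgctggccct
Tekt4, chr17:25471340-25471589, plus strand: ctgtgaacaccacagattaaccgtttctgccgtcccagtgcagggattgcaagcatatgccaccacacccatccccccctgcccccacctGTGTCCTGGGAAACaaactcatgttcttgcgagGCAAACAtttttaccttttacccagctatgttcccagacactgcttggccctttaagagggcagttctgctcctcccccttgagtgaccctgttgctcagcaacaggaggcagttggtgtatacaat
Drc1, chr5:30281143-30281392, plus strand: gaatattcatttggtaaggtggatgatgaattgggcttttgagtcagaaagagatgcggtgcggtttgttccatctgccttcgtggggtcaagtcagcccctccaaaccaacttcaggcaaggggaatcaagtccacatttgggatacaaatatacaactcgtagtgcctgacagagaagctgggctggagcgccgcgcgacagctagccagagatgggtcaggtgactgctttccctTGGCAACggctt
Ift57, chr16:49699044-49699293, plus strand: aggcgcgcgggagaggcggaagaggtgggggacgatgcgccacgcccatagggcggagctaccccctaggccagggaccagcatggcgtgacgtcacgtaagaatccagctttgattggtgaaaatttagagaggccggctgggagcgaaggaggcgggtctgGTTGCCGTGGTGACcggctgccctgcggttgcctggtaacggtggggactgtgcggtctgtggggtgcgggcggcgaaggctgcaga
Positions are counted back from the start. On the strand opposite to the gene, Foxa1 holds TGTTTAC from -141 to -135, Noto TGTTTGC from -16 to -10, and Tekt4 TGTTTGC from -127 to -121. Tekt4 also holds the X-box on its own strand from -160 to -147. Drc1 holds GTTGCCA from -12 to -6, and Ift57 holds the X-box from -87 to -74, both on the opposite strand. Among 27025 genes with a promoter entry, TGTTTAC was present in 3.54%, TGTTTGC in 4.93%, the X-box in 1.24% and GTTGCCA in 4.19%. For the 11157 tested genes with an entry these shares were 2.72, 4.0, 1.75 and 4.07%. Among the tested ciliary motility genes, 40 had an entry, and the 4 motifs in that order were in 1, 4, 2 and 6 of them. Among 38 cilia transport genes with an entry they were in 0, 2, 4 and 2, and among 10 node and notochord genes in 1, 1, 0 and 0. They were in 3, 4, 0 and 0 of 17 definitive endoderm genes, and in 0, 1, 0 and 1 of 13 Hox genes. In GENCODE M21 the genes Foxa1 and Tekt4 begin upstream of the start used here, so that both windows lie inside the gene as annotated there. Drc1 begins there at 30281388 and Ift57 at 49699233, so that the last bases of their windows also lie inside the gene. A match is a run of letters in the window and not a measured binding site, and the 5 promoters were chosen to show matches.

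Node and notochord genes were higher in ΔHx High cells without exception: 16 of the 16 tested members, out of 18 listed, with a median log2 change of 4.66. Noto, a homeobox factor of the node that acts upstream of Foxj1, was 2558, 2014 and 1625 in High and 30.1, 30.8 and 7.23 in Neg. All 3 High libraries were far above the Neg libraries, and the lowest Neg library was replicate 3 (log2 6.66, SE 0.59, adjusted p = 4.52e-08). Shh, the secreted ligand that the notochord uses to pattern the neural tube (chromosome 5, 28456815 to 28467256, minus strand, mm10), stood at 3517, 2753 and 2847 against 45.8, 54.1 and 20.6. Its groups did not overlap (log2 6.31, SE 0.62, adjusted p = 1.61e-07). Chrd, which encodes the BMP antagonist chordin, was 5431, 5328 and 6072 in High and 96.0, 163 and 64.0 in Neg, and Nog, which encodes noggin, was 988, 772 and 828 and 71.4, 71.8 and 44.4. Both antagonists were higher in every High library than in any Neg library (log2 5.79, SE 0.34, adjusted p = 1.92e-10 for Chrd, and log2 3.79, SE 0.45, adjusted p = 1.74e-06 for Nog).

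T, the brachyury factor, is made by the notochord and also by the primitive streak, and its change was among the smaller ones of the list. It was 11514, 11811 and 12039 in High and 2297, 2916 and 1534 in Neg (log2 2.44, SE 0.25, adjusted p = 2.84e-07). All 3 High libraries still lay above all 3 Neg libraries. Foxa1 and Foxd4, forkhead factors of the same midline, were higher by log2 5.61 and 4.22. Mnx1, a homeobox factor of the notochord, was 52.6, 67.0 and 62.7 in High and rested on 2 reads over the 3 Neg libraries, a ratio of 89.2 (95% interval 24.4 to 741). Lefty1 and Cfc1, both of nodal signalling, had the smallest changes of the list among its called genes at log2 2.16 and 1.70. The summed level of the listed genes was 39852 to 41455 in the High libraries and 2685 to 4314 in Neg, and 7258 to 7971 in the Mid libraries of the same genotype.

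**Figure D2:**
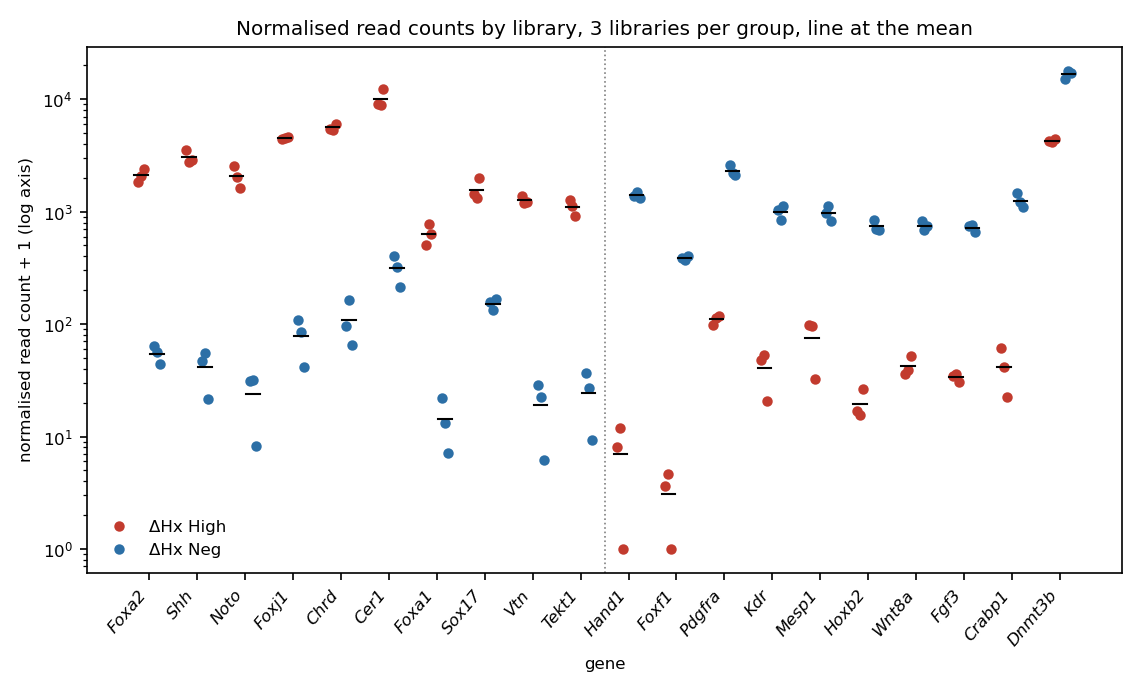
Normalised read count plus 1 on a log axis for 20 genes, in each of 3 ΔHx High (red) and 3 ΔHx Neg (blue) libraries, with a line at each mean. The 10 genes left of the dotted line, Foxa2 to Tekt1, are higher in all 3 High libraries, and the 10 to its right, Hand1 to Dnmt3b, are lower in all 3.

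Genes of cilia were higher in ΔHx High cells as well. Of 48 tested genes for ciliary motility, which encode dynein arms, radial spokes and the docking and assembly proteins of the beating axoneme, 45 were higher and 0 lower, with a median log2 change of 4.26. Foxj1, the forkhead factor that switches on motile cilia genes, was 4464, 4486 and 4645 in High and 107, 84.0 and 40.3 in Neg. No High library came near a Neg library (log2 5.97, SE 0.47, adjusted p = 8.62e-09). Rfx2 and Rfx3, RFX factors of ciliated cells, were higher too, Rfx2 at 236 ± 72.9 against 11.1 ± 1.93 (mean ± SD, n = 3 each; log2 4.25, SE 0.35) and Rfx3 at 1978 ± 257 against 614 ± 19.1 (log2 1.68, SE 0.17). Among 12 tested cilia regulators 9 were higher and 1 lower, the exception being Myb, which was 15.8, 19.0 and 0.825 in High and 102, 121 and 127 in Neg (log2 -3.78, SE 0.66, adjusted p = 0.000124). Myb is also a factor of blood progenitors, and its High replicate 3 lay far under the other High libraries.

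Among the axoneme genes, Dnah5, the heavy chain of the outer dynein arm, was 930.4, 1032 and 897 in High and 22.3, 16.8 and 2.06 in Neg. Tekt1, a filament protein inside the microtubule doublets, was 1276, 1124 and 904 and 35.7, 26.1 and 8.26. Each stood apart between the groups (log2 6.46, SE 0.63, adjusted p = 1.34e-07 for Dnah5, and log2 5.70, SE 0.42, adjusted p = 3.86e-09 for Tekt1). Rsph4a of the radial spoke head changed by log2 5.72, Enkur by 6.51, Cfap45 by 6.52, Tekt4 by 6.49, and Drc1 of the nexin link by 5.36. The 3 members not called were Dnah8 at 51.6 ± 51.8 against 12.4 ± 4.07, Dnah7a at 23.9 ± 14.1 against 7.06 ± 2.11 and Dnaaf2 at 732 ± 44.1 against 883 ± 38.3, as means ± SD of High against Neg. edgeR on the recovered reads called Dnah8 (log2 2.03, adjusted p = 0.037) and Dnah7a (1.73, adjusted p = 0.0344). Dnaaf2 assembles dyneins in the cytoplasm and the groups of its libraries did not overlap, with Neg the higher. It was called lower by DESeq2 (log2 -0.27, adjusted p = 0.0483) and with the High and Neg libraries of ΔHx fitted alone (-0.27, adjusted p = 0.0378).

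Of the 15 largest rises, taken over called genes whose High mean reached 100, 6 were genes of the cilia lists: Noto, Ak7, Cfap45, Enkur, Tekt4 and Dnaic2. Zbbx had 589 reads over the High libraries and 0 over Neg, at least 55.4-fold higher by the limit of 3 reads a library that a count of 0 allows. Ankrd66 had 762 against 2 reads, a ratio of 324 (95% interval 89.3 to 2677), and Ccdc113 532 against 1, a ratio of 452 (95% interval 80.7 to 17879). These exact intervals and limits cover counting error only. Dnajb13, a radial spoke chaperone, changed by log2 7.05, Dynlrb2, a dynein light chain, by 6.97, and Ccdc108, Iqub and Cfap44 by 7.01, 6.69 and 6.62. Scel, which encodes sciellin of epithelial cell envelopes, was no cilia gene and changed by 6.52.

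Transport genes of the cilium moved in the same direction by smaller steps. Among 43 tested genes of intraflagellar transport, its motors and the BBSome 33 were higher and 0 lower, with a median of 1.07. Ift57 was 1219.8, 1187 and 1177 in High and 369, 309 and 293 in Neg (log2 1.89, SE 0.15, adjusted p = 1.06e-08), and Ift81 1229, 1178 and 1122 and 309, 343 and 315. The groups of both genes stood apart although Neg cells held many reads of each. Kif17, an accessory motor of ciliary transport, was 36.5 ± 30.6 against 4.12 ± 3.59 (log2 2.74, SE 0.74), and Ttc30b 516 ± 15.6 against 37.1 ± 7.99 (log2 3.78, SE 0.29). Planar cell polarity genes, which orient the nodal cilia, gave 9 higher and 3 lower of 18. Prickle2 and Fzd6 were higher at 769.9 ± 93.7 against 88.6 ± 15.6 and 581 ± 21.1 against 93.1 ± 10.7, while Ptk7, Celsr3 and Ror2 were lower at 3236 ± 428 against 5678 ± 833, 41.9 ± 11.0 against 103 ± 11.2 and 908 ± 100.2 against 1331 ± 170.5. The core gene Vangl1 was higher (log2 1.49, SE 0.12).

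Genes of the definitive endoderm were also higher in High, 17 of 23 tested against 1 lower, with a median of 2.48. The summed level of the listed genes was 110155 to 110880 in the High libraries and 21412 to 24239 in Neg. In the Mid libraries it was 77298 to 87123.5, also above every Neg library. Sox17, the HMG-box factor of the early gut, was 1428, 1309.5 and 1973 in High and 155, 132 and 165 in Neg, and Foxa1, which overlaps with FoxA2 in the gut tube, was 503, 778 and 627 and 21.2, 12.1 and 6.19. Neither gene's groups overlapped (log2 3.36, SE 0.18, adjusted p = 8.94e-11 for Sox17, and log2 5.61, SE 0.53, adjusted p = 8.99e-08 for Foxa1). Cer1, a secreted antagonist of Nodal, BMP and Wnt from the anterior endoderm, reached 9102, 8814 and 12351 against 401, 322 and 211, the highest High value being in replicate 3 (log2 5.05, SE 0.22, adjusted p = 8.81e-12). Trh, an early marker of the gut, was 3598 ± 239 against 526 ± 84.3 (log2 2.78, SE 0.16), and Foxa3 239.6 ± 56.8 against 32.9 ± 14.5 (log2 2.88, SE 0.31). Gata4 was the member called lower, at 174, 248 and 172 in High and 647, 743 and 685 in Neg (log2 -1.82, SE 0.32, adjusted p = 0.000123); it is also a factor of cardiac mesoderm. Cxcr4, a chemokine receptor of endoderm and mesoderm, was not called at 91.2 ± 12.6 against 101 ± 12.1. Eomes, needed for endoderm and for the earliest mesoderm, was higher (log2 1.19, SE 0.36), but not without ΔHx Neg replicate 1 (log2 1.03, adjusted p = 0.0548).

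The anterior mesendoderm, which lies in front of the notochord, had 13 of 16 members higher and 1 lower (median 2.07). Gsc, the organiser homeobox gene, was 490.2, 449 and 839 in High and 30.1, 53.2 and 75.4 in Neg (log2 3.50, SE 0.52, adjusted p = 2.10e-05). Lhx1, a LIM homeobox factor of the organiser, was 3337 ± 1466 against 391 ± 46.8 (log2 3.01, SE 0.26), and Hhex, of the anterior endoderm, 578 ± 52.3 against 103 ± 13.3 (log2 2.48, SE 0.22). Fzd8 and Fzd5, receptors of Wnt, changed by 3.49 and 2.12. Frzb was lower at 789 ± 87.9 against 1333 ± 193, although it encodes a secreted Wnt antagonist as do the higher Dkk1 and Sfrp1.

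Visceral endoderm, which also makes FoxA2 and mixes with the definitive endoderm at this age, could fall into the gates, and its genes were split. Of 26 tested 9 were higher, 3 lower and 14 not called, with a median of 0.72. The summed level of the list was 4625, 9130.4 and 3619 in the High libraries and 3258, 5396 and 5833 in Neg, so that the groups overlapped and ΔHx High replicate 2 was the highest. In the Mid libraries it was 65517 to 72565, above every High and Neg library. None of the defining markers was at 0. Ttr and Afp were not called, Ttr at 278, 736 and 192 in High and 115, 247 and 224 in Neg and Afp at 254, 336 and 56.9 and 81.5, 195 and 192, and Cubn, an uptake receptor, was 156, 396 and 212 and 137, 357 and 419. The groups of all 3 overlapped. Without ΔHx High replicate 3, the lowest library of the sum in High, Ttr (log2 1.28, adjusted p = 0.0159) and Afp (1.01, adjusted p = 0.0275) passed the threshold. Among those called, Fgg, a fibrinogen chain, was 263 ± 94.1 against 9.09 ± 1.84 (log2 4.65, SE 0.37) and Hnf4a 63.6 ± 44.9 against 13.3 ± 11.4 (log2 2.55, SE 0.67). Lrp2, the megalin receptor, went the other way at 65.8, 99.6 and 119.6 in High and 683, 786 and 1195 in Neg (log2 -3.21, SE 0.28, adjusted p = 4.16e-08). The other lower members were Pdzk1, a scaffold protein of transporters, at 143 ± 60.8 against 286 ± 57.6, and Slc2a2, a glucose transporter, with 1 read in High and 27 in Neg, a ratio of 31.8 (95% interval 5.24 to 1302). Slc2a2 was not called without High replicate 1, High replicate 2, High replicate 3 or Neg replicate 3, with a pseudocount of 5, with no filter, with a filter of 50, with quantile normalisation, with equal totals, with equal totals without Rn45s or with the High and Neg libraries of ΔHx alone (log2 -0.99 to -2.43, adjusted p = 0.0517 to 0.341). Without ΔHx High replicate 2 the definitive endoderm list kept its count of 17 higher, and the visceral endoderm list had 7 higher. That fit cannot separate the 2 tissues, because the remaining High libraries also held reads of visceral endoderm genes. The part of visceral endoderm cells in the higher endoderm genes was not tested.

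**Figure D3:**
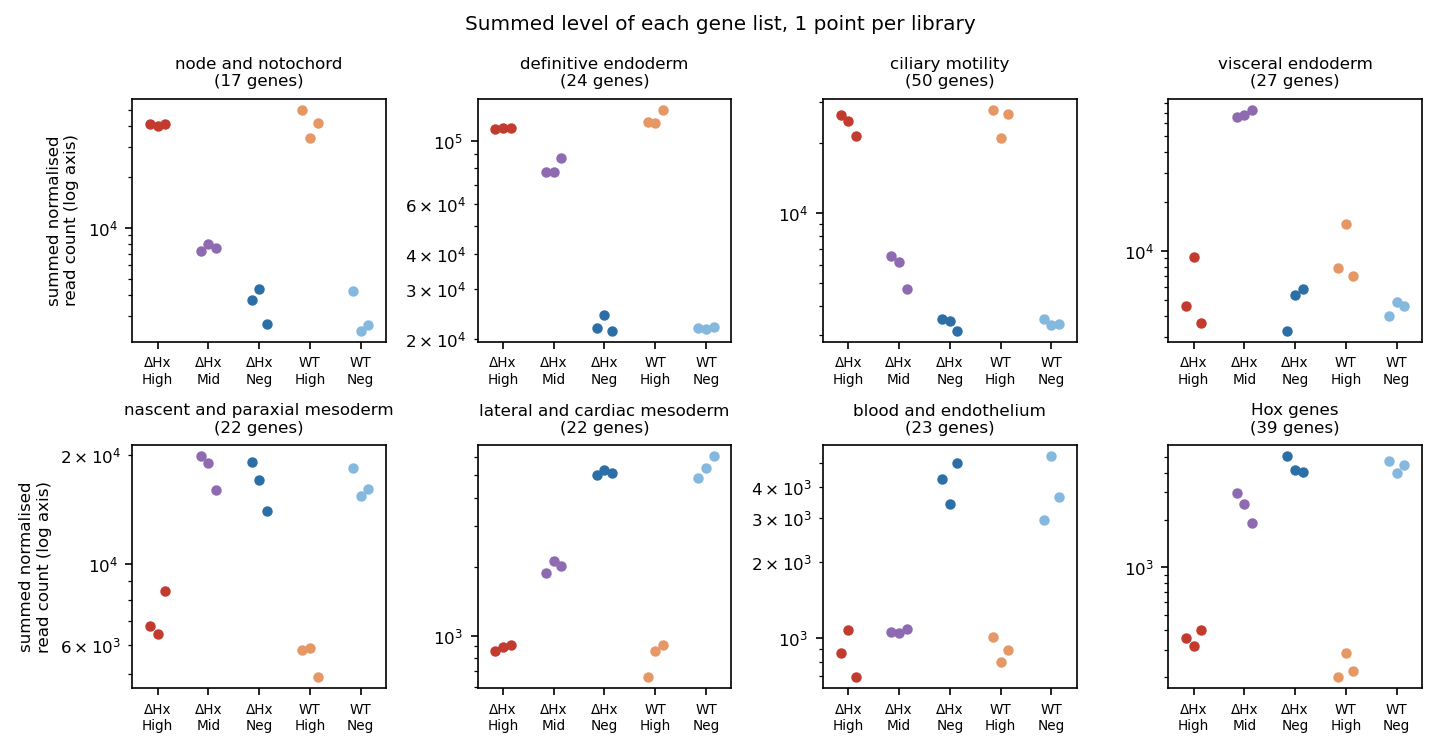
Summed normalised read count of 8 gene lists on log axes, 1 point per library, in ΔHx High, Mid and Neg and in WT High and Neg. The node list sums to 39852 to 41455 in ΔHx High and to 2685 to 4314 in ΔHx Neg, while the visceral endoderm list is highest in ΔHx Mid at 65517 to 72565.

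Epithelial genes were higher in High. Of 30 genes for junctions, keratins and epithelial splicing factors 29 were higher and 0 lower, with a median of 1.68. Cdh1, which encodes E-cadherin, was 8534, 7896 and 7091 in High and 2562, 2287 and 2497 in Neg (log2 1.68, SE 0.11, adjusted p = 1.09e-09). Krt19 was 5623, 4902 and 3936 and 188, 188 and 113, and Krt8 was 23774, 23207 and 24490.0 and 2768, 2686 and 2522. The keratins differed the more, at log2 4.90 and 3.16. Cldn9, a tight junction protein, changed by 5.31, Dsp, of desmosomes, by 2.48, and Esrp1, a splicing factor of epithelia, by 1.86. Pard6b was the one member not called, at 309.7 ± 48.6 against 376 ± 15.6.

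Mesenchymal genes went the other way, with 12 of 18 lower and 1 higher (median -1.52). Snai1, a repressor of Cdh1 in cells leaving the primitive streak, was 128, 109 and 87.4 in High and 833, 792 and 618 in Neg (log2 -2.78, SE 0.27, adjusted p = 1.02e-07). Fn1, fibronectin, was 2351, 2554 and 2513 and 12576, 14069.5 and 10807 (log2 -2.33, SE 0.11, adjusted p = 2.10e-11), and Col1a1, fibrillar collagen, 5.26, 4.53 and 1.65 and 316, 244 and 422. Both groups stood apart for each of these genes. Cdh2, which encodes N-cadherin, was the member called higher, at 2184 ± 382 against 1145 ± 279 (log2 0.95, SE 0.18). Without ΔHx High replicate 2 or ΔHx Neg replicate 1 the list had 2 higher.

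The matrix list for the notochord was split into 8 higher and 5 lower of 17. Vtn, vitronectin, was 1386, 1199 and 1219.6 in High and 27.9, 21.5 and 5.16 in Neg (log2 6.32, SE 0.79, adjusted p = 2.87e-06), and Col2a1, the collagen of the notochord sheath and cartilage, 1503, 1411 and 1414 and 279, 216 and 287 (log2 2.47, SE 0.20, adjusted p = 1.02e-08). Lama5, a laminin chain, was 3388 ± 345 against 1301 ± 164 (log2 1.38, SE 0.15). Hapln1 and Vcan, which build hyaluronan matrix, were lower at 34.2 ± 9.25 against 621 ± 212 and 152 ± 23.9 against 707 ± 63.6. The collagen genes Col5a2 and Col18a1 and the laminin gene Lama1 were lower as well, at 45.6 ± 15.2 against 225 ± 50.2, 1386 ± 50.1 against 3403 ± 281 and 235 ± 71.1 against 552 ± 32.7. Lama1 was not called without High replicate 3, Neg replicate 1 or Neg replicate 2 or by DESeq2 (log2 -1.01 to -1.27, adjusted p = 0.0534 to 0.116). In the list of parietal endoderm, whose defining markers are mostly matrix genes, 3 of 12 were higher, 2 lower and 7 not called. The lower count was 1 without ΔHx High replicate 3, ΔHx Neg replicate 1 or ΔHx Neg replicate 2, and the higher count was 7 with the ΔHx High and Neg libraries fitted alone. The WT Mid libraries, which entered the spread of the main fit, differed widely, with sums of 253871, 46183.5 and 70316 for this list.

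Mesoderm genes were lower in High. In nascent and paraxial mesoderm 17 of 22 fell against 2 that rose, with a median of -2.62. Mesp1, the bHLH factor of the first mesoderm to leave the streak, was 96.5, 94.2 and 31.3 in High and 966, 1125 and 824 in Neg, its lowest High value being in replicate 3 (log2 -3.85, SE 0.47, adjusted p = 2.30e-06). Pdgfra, the receptor tyrosine kinase of paraxial mesoderm, was 97.3, 112 and 118 and 2581, 2194 and 2112 (log2 -4.38, SE 0.32, adjusted p = 3.23e-09). Msgn1, of presomitic mesoderm, was 82.1 ± 27.5 against 666 ± 180.4 (log2 -3.02, SE 0.45), and Foxc2 50.6 ± 26.6 against 628 ± 154 (log2 -3.70, SE 0.49). Cdx4, a posterior homeobox factor, had 3 reads over the High libraries and 1020 over Neg, a ratio of 400.3 (95% interval 137 to 1944). Tbx6, of paraxial mesoderm, was not called at 382 ± 47.6 against 639.6 ± 152 (adjusted p = 0.0535), although edgeR on the recovered reads called it lower (log2 -0.74, adjusted p = 0.0438). Against this direction stood Eomes, given above, and Fgf8, a ligand of the streak, at 758 ± 167 against 367 ± 75.2 (log2 1.04, SE 0.35); the call of Fgf8 was lost without ΔHx High replicate 3 (log2 0.87, adjusted p = 0.0868), without ΔHx Neg replicate 1 (1.02, adjusted p = 0.0538) and without ΔHx Neg replicate 2 (0.91, adjusted p = 0.0807).

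Lateral, cardiac and extra-embryonic mesoderm gave 20 of 22 lower and 1 higher (median -2.92), and all 22 had groups that did not overlap. Hand1, of the amnion, allantois and heart, was 7.02, 10.9 and 0 in High and 1369.6, 1498 and 1321 in Neg, with 0 in High replicate 3 (log2 -8.26, SE 0.74, adjusted p = 5.07e-08). Foxf1, a forkhead factor of lateral mesoderm, was 2.63, 3.62 and 0 and 389.6, 368 and 405 (log2 -7.24, SE 0.85, adjusted p = 1.28e-06). Hand2 and Tnnt2, of heart muscle, had 0 and 0 reads over the 3 High libraries, which puts Hand2 at least 14.2-fold lower and Tnnt2 at least 11.2-fold lower. Postn, a matrix protein, was the only member called higher, at 140.3, 101 and 186 in High and 15.6, 15.9 and 2.06 in Neg (log2 3.87, SE 0.72, adjusted p = 0.000253). Isl1 was not called at 217 ± 23.7 against 262 ± 20.8. Among the largest falls were also 2 genes of this list, Mef2c, a factor of heart muscle, at 0, 8.15 and 0 and 165, 183 and 189 (log2 -6.42), and Wnt2, a Wnt ligand, at 13.2, 2.72 and 0 and 175, 233 and 179.6 (log2 -5.70).

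Blood and endothelium followed with 19 of 23 lower and 1 higher (median -3.31). Kdr, the VEGF receptor of vessel and blood precursors, was 46.5, 52.5 and 19.8 in High and 1036, 835 and 1112 in Neg (log2 -4.72, SE 0.54, adjusted p = 9.51e-07). Tal1, the master factor of blood, had 5 reads in High and 624 in Neg (log2 -6.71, SE 0.63). Fli1, an ETS factor, and Tek, the angiopoietin receptor, were among the largest falls at log2 -5.63 and -5.45. Of the largest falls outside the lists, Btla, an immune receptor, Rerg, a small GTPase, and Ngfr, the low-affinity neurotrophin receptor, changed by -6.36, -5.98 and -5.52. Etv2, an ETS factor of endothelium, was 15.8 ± 11.5 against 273 ± 9.52 (log2 -4.24, SE 0.44). The embryonic globin genes Hbb-bh1 and Hba-x had 2 and 0 reads in High against 2121 and 164 in Neg, which gives a ratio of 1249 (95% interval 345 to 10317) for Hbb-bh1 and puts Hba-x at least 21.8-fold lower. Gata1, a red cell factor, was called higher against the rest, at 258, 425 and 202 in High and 136, 68.1 and 164 in Neg (log2 1.28, SE 0.47, adjusted p = 0.035). That call did not hold with any of 4 libraries left out in turn: log2 1.34, adjusted p = 0.0599 without High replicate 1, 0.98, adjusted p = 0.152 without High replicate 2, 1.40, adjusted p = 0.0513 without Neg replicate 1, and 0.90, adjusted p = 0.176 without Neg replicate 2. It was lost under quantile normalisation too (1.00, adjusted p = 0.0949).

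Hox genes, which give cells their place along the body axis, were lower in 21 of the 22 that could be tested, out of 39 listed, and higher in 0. Their median log2 change was -4.15, or -3.74 with genes without a read in a group set at their limit. Hoxb1, one of the first Hox genes to be switched on, was 259.6, 202 and 285 in High and 1617, 1526 and 1201 in Neg. Its groups stood apart (log2 -2.54, SE 0.24, adjusted p = 1.18e-07). Hoxb2 was 18.6 ± 6.05 against 739 ± 86.2 (log2 -5.27, SE 0.40). Hoxb6 had 1 read in High and 260 in Neg, a ratio of 306 (95% interval 54.5 to 12137). The antisense transcript Hoxaas3 had 3 and 291, a ratio of 114 (95% interval 38.7 to 557), but it lies among Hoxa genes on the other strand, and the libraries keep no strand, so its reads cannot be told apart from theirs.

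Epiblast and ectoderm genes were mostly lower as well. In the epiblast and pluripotency list 11 of 18 were lower and 4 higher (median -1.10). Dnmt3b, the DNA methyltransferase of the epiblast, was 4252, 4198 and 4408 in High and 15045, 17829 and 16913 in Neg (log2 -1.95, SE 0.10, adjusted p = 4.07e-11), and Utf1, a chromatin factor of the epiblast, 48.2, 87.8 and 68.4 and 847, 1115 and 1433 (log2 -4.04, SE 0.39, adjusted p = 1.29e-07). Pou5f1, which encodes OCT4, was lower at 789.8 ± 64.7 against 2288 ± 156 (log2 -1.53, SE 0.11), and Sox2 at 7.56 ± 7.84 against 95.4 ± 17.1 (log2 -3.89, SE 0.63). Fgf5, Tdgf1, Otx2 and Trap1a went the other way, Fgf5 at 1498 ± 542 against 468 ± 111 and Otx2, an anterior homeobox factor, at 1726 ± 175 against 758 ± 63.9. In neural and surface ectoderm 12 of 17 were lower and 1 higher, with Gbx2 at 151 ± 9.73 against 1278 ± 288 (log2 -3.05, SE 0.28). The higher member was Grhl2, an epithelial factor, at 488 ± 130.1 against 251 ± 31.0 (log2 0.93, SE 0.23), and 2 members were higher without ΔHx Neg replicate 3.

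Among the other cell types that a dissected embryo may hold, primordial germ cell genes were lower in 3 of 8, among them Alpl at 87.1 ± 26.9 against 574 ± 38.3 (log2 -2.75, SE 0.23) and Tfap2c at 16.1 ± 3.94 against 184 ± 27.7 (log2 -3.45, SE 0.61), and higher in 0, or 1 without ΔHx Neg replicate 3. The other 5 germ cell members were not called: Kit, Ifitm1, Dnd1 and the defining markers Dppa3 and Prdm1. Extra-embryonic ectoderm genes were lower in 5 of 9 and higher in 1. The higher one was Krt7, a keratin of many simple epithelia, at 579, 468 and 750.4 in High and 32.4, 46.7 and 36.1 in Neg (log2 3.92, SE 0.19, adjusted p = 2.52e-11). Without ΔHx High replicate 3 the list had 2 higher. Elf5, a defining marker of that tissue, had 2 reads in High and 102 in Neg, a ratio of 60.0 (95% interval 16.2 to 503).

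In the signalling pathways, members of the same pathway moved in both directions, as did all tested genes, 21.5% higher and 21.1% lower. The share called lower was also 21.1% among hedgehog genes and among Nodal genes. Of 19 hedgehog genes 8 were higher and 4 lower. Beside Shh, its targets Ptch1, the receptor, and Gli1, a transcriptional activator, were higher: Ptch1 was 799.8, 879 and 873 in High and 402, 361 and 355 in Neg (log2 1.19, SE 0.12, adjusted p = 2.06e-07), and Gli1 209.6, 190.2 and 204 and 99.3, 70.0 and 78.5 (log2 1.29, SE 0.23, adjusted p = 0.000148). Gas1, a coreceptor that Shh signalling represses, was lower at 217, 269 and 313 and 1853, 1897 and 1441 (log2 -2.70, SE 0.23, adjusted p = 2.15e-08). Gli3, whose product can repress targets of the pathway, and Gli2 were lower at 373 ± 34.7 against 904 ± 33.4 and 234 ± 25.6 against 392 ± 54.8. Sufu, an inhibitor of Gli proteins, was not called at 839 ± 43.2 against 975 ± 114. Scube2, which helps release Shh, was lower at 4.71 ± 2.65 against 45.8 ± 28.9. It was not called without High replicate 3, Neg replicate 2 or Neg replicate 3 (log2 -2.51 to -3.09, adjusted p = 0.0519 to 0.104).

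Nodal signalling gave 8 higher and 4 lower of 19. The ligand gene Nodal was 1635, 1633 and 1642 in High and 114, 117 and 152 in Neg (log2 3.68, SE 0.20, adjusted p = 8.98e-11), and Dand5, a Nodal antagonist of the node's edge, 1280.3, 1138 and 1279.8 and 40.2, 40.1 and 37.2 (log2 4.94, SE 0.32, adjusted p = 7.51e-10). The antagonist genes Lefty1 and Lefty2 went opposite ways. Lefty1, of the midline, was 187, 168 and 280.4 in High and 30.1, 55.1 and 56.8 in Neg (log2 2.16, SE 0.46, adjusted p = 0.000795), and Lefty2, of the mesoderm, 106, 168 and 18.1 and 738, 1490.2 and 736 (log2 -3.73, SE 0.72, adjusted p = 0.000334). Both genes are close copies of each other, and reads that fit both could be split or lost in counting. Foxh1, the nuclear partner of the pathway, was lower at 965 ± 41.9 against 1999 ± 223 (log2 -1.05, SE 0.11), and Smad4, the shared mediator, was not called at 467 ± 34.3 against 508 ± 55.0. Pcsk5, a protease, was lower at 35.7 ± 4.26 against 258 ± 76.3.

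Of 27 BMP genes 11 were lower and 3 higher. The higher ones were the antagonists Chrd and Nog, given above, and the ligand Bmp7, at 2184, 2019 and 2636 in High and 472, 507 and 388 in Neg (log2 2.32, SE 0.18, adjusted p = 8.75e-09). The ligand Bmp4 was lower at 148, 123 and 169 and 443, 443 and 441 (log2 -1.60, SE 0.29, adjusted p = 0.000195). Of 9 targets of the pathway 5 were lower, 0 higher and 4 not called. Msx1 was 47.0 ± 6.56 against 382 ± 16.4 (log2 -3.01, SE 0.37), Msx2 90.9 ± 31.6 against 613 ± 70.0 (log2 -2.80, SE 0.36) and Id2 428 ± 26.3 against 1435 ± 163 (log2 -1.74, SE 0.24), all lower.

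The Wnt list held 7 higher and 10 lower members of 26. Of 7 ligand genes 4 were lower, 0 higher and 3 not called. Wnt8a was 35.1, 38.0 and 51.1 in High and 822, 679 and 740.2 in Neg (log2 -4.15, SE 0.27, adjusted p = 8.43e-10), Wnt5a 105 ± 23.7 against 906 ± 71.4 (log2 -3.12, SE 0.21) and Wnt3 37.8 ± 25.8 against 148 ± 29.3 (log2 -2.17, SE 0.43). Of 9 inhibitor genes 3 were higher, 3 lower and 3 not called. The higher ones were Dkk1, Sfrp1 and Shisa2, with Sfrp1 at 2685, 2841 and 3209 in High and 899, 885 and 960.1 in Neg (log2 1.67, SE 0.20, adjusted p = 1.32e-06). The lower ones were Frzb, given above, Sfrp2 at 136 ± 53.5 against 522 ± 56.1 (log2 -2.01, SE 0.26) and Notum at 23.1 ± 9.70 against 88.8 ± 20.7. Targets and effectors were split as well, 4 of 8 higher and 2 lower. Sp5, a transcription factor and target, was 2788, 2435 and 2477 in High and 1072, 1070.3 and 757 in Neg (log2 1.42, SE 0.14, adjusted p = 9.41e-08), and Lgr5, a receptor of R-spondins, 241 ± 32.4 against 76.6 ± 36.8 (log2 1.75, SE 0.29). Rnf43 and Nkd1, which dampen the pathway, were higher at 68.1 ± 13.3 against 16.5 ± 3.18 and 1203 ± 193 against 722 ± 148. Nkd1 was not called without Neg replicate 3 (log2 0.56, adjusted p = 0.0577). Lef1, a nuclear effector and target, was lower (log2 -1.80, SE 0.18), and Axin2, a common target, was not called at 499 ± 34.2 against 549 ± 30.9. FGF genes were lower in 11 of 17 and higher in 4. Fgf3 was 33.3, 35.3 and 29.7 in High and 746, 760.5 and 657 in Neg (log2 -4.42, SE 0.43, adjusted p = 1.46e-07), Fgf15 47.9 ± 13.7 against 806 ± 57.4 (log2 -4.08, SE 0.53) and Fgf4 39.6 ± 8.17 against 289 ± 106 (log2 -2.79, SE 0.51). The 4 higher members were 2 without ΔHx High replicate 3. The receptor genes Fgfr1 and Fgfr4 moved apart, Fgfr1 lower at 1808 ± 18.9 against 3505 ± 298 and Fgfr4 higher at 67.3 ± 21.7 against 15.6 ± 13.1. Spry4, a feedback inhibitor, was higher at 583 ± 107 against 398 ± 66.7. It was not called without High replicate 3 or Neg replicate 3 (log2 0.41 to 0.41, adjusted p = 0.0748 to 0.0833).

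Retinoic acid and Notch genes were mixed, at 5 higher and 6 lower of 14, and at 5 higher and 7 lower of 20. The share of Notch genes called higher, 25%, was near the 21.5% of all genes. The 5 higher retinoic acid genes were 3 without ΔHx High replicate 2, ΔHx Neg replicate 2 or ΔHx Neg replicate 3. Cyp26a1, which breaks retinoic acid down, was 3529, 3808 and 4931 in High and 977, 1057 and 1053 in Neg (log2 1.98, SE 0.22, adjusted p = 8.15e-07). Aldh1a2, which makes it, was 1333, 1093 and 940.1 and 5324, 3427 and 3246 (log2 -1.81, SE 0.33, adjusted p = 0.000201), and Crabp1, which binds it in the cytoplasm, 59.6, 40.8 and 21.4 and 1457, 1207 and 1094 (log2 -5.02, SE 0.27, adjusted p = 8.76e-11). Among the genes called higher with Cyp26a1 were Dhrs3, a retinal reductase, at 403 ± 36.4 against 128 ± 26.0, Stra6, a retinol transporter, at 721 ± 45.6 against 378 ± 47.8, and the receptor gene Rara at 687 ± 58.0 against 355 ± 32.2. The call was lost for Stra6 without High replicate 2, High replicate 3, Neg replicate 2 or Neg replicate 3 or by DESeq2 (log2 0.88 to 0.95, adjusted p = 0.0502 to 0.0711). In the Notch list the receptors Notch1 and Notch2 were higher at 2126 ± 95.1 against 1076 ± 70.1 and 2846 ± 545 against 1170.0 ± 61.1, and the target genes Hes1, Hey1 and Nrarp were higher at 1409.5 ± 209 against 745 ± 79.7, 422 ± 41.3 against 183 ± 10.7 and 193 ± 61.0 against 91.8 ± 14.3. Hes3, a repressor gene, was lower with 5 reads in High and 265 in Neg (log2 -5.44, SE 0.60). The ligand gene Dll4, the target genes Hes5 and Hey2, and Lfng were called lower as well.

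Guidance and migration genes went both ways, to be read against 21.5% higher and 21.1% lower of all genes. Of 20 axon guidance genes 9 were higher and 8 lower. All 3 Slit ligand genes were higher, with Slit2 at 3669, 3474 and 2716 in High and 206, 257 and 162 in Neg (log2 3.99, SE 0.25, adjusted p = 6.15e-10), Slit1 at 409 ± 28.6 against 71.6 ± 26.8 (log2 2.57, SE 0.38) and Slit3 at 891 ± 119 against 333 ± 47.5 (log2 1.42, SE 0.23), and their receptor genes Robo1, Robo2 and Robo3 were lower, with Robo2 at 0.877, 17.2 and 0 and 118, 113 and 116 (log2 -5.17, SE 0.87, adjusted p = 9.19e-05). Ntn1, the netrin ligand of the floor plate, was higher at 1021 ± 124 against 326 ± 53.0 (log2 1.65, SE 0.22), and Unc5c, a netrin receptor, had 3 reads in High and 1031 in Neg, a ratio of 405 (95% interval 138 to 1965). The netrin receptor genes Dcc and Unc5a and the semaphorin receptor genes Nrp2 and Plxnd1 were lower too, Nrp2 at 65.2 ± 28.3 against 494 ± 24.2 (log2 -3.01, SE 0.28), Dcc at 1.78 ± 1.54 against 14.4 ± 4.72, Unc5a at 2.66 ± 1.85 against 13.9 ± 3.97 and Plxnd1 at 52.9 ± 26.9 against 98.7 ± 25.6. Of these Dcc was not called without High replicate 3 or Neg replicate 2 (log2 -2.03 to -2.42, adjusted p = 0.0635 to 0.0878), nor Unc5a without High replicate 3, Neg replicate 1 or Neg replicate 3 (log2 -1.69 to -2.03, adjusted p = 0.0574 to 0.0828), nor Plxnd1 without High replicate 1, High replicate 2, Neg replicate 1 or Neg replicate 3, with equal totals without Rn45s or with the High and Neg libraries of ΔHx alone (log2 -0.58 to -1.02, adjusted p = 0.0505 to 0.183). Of 12 migration signals 5 were higher and 3 lower. Pdgfa and Pdgfc, ligands of Pdgfra, were higher at 428 ± 36.6 against 231 ± 24.7 and 152 ± 22.0 against 25.8 ± 18.9. Aplnr, the apelin receptor, and Apela, its ligand, were both higher, Aplnr at 12734, 11145 and 10249 in High and 2772, 2759 and 2347 in Neg (log2 2.11, SE 0.21, adjusted p = 1.88e-07). Cxcl12, a chemokine, was lower at 52.8 ± 32.1 against 937 ± 145 (log2 -4.28, SE 0.35) while its receptor gene Cxcr4, given above, was not called. S1pr1, a receptor for sphingosine 1-phosphate, had 0 reads in High and 71 in Neg, which puts it at least 9.17-fold lower. Ephrins and Eph receptors had 6 higher and 4 lower of 19, with Epha2, a receptor, higher at 1638 ± 334 against 240.0 ± 37.9 (log2 2.76, SE 0.22) and Efna1, a ligand, lower at 56.9 ± 10.7 against 358 ± 63.1 (log2 -2.63, SE 0.23). The ligand genes Efna3 and Efnb3 and the receptor gene Epha4 were also lower, at 32.4 ± 7.22 against 108 ± 5.64, 123 ± 33.8 against 195 ± 24.6 and 575 ± 51.3 against 1206 ± 111. Efnb3 was not called without High replicate 3, Neg replicate 2 or Neg replicate 3, with equal totals or with equal totals without Rn45s (log2 -0.45 to -0.71, adjusted p = 0.0519 to 0.141).

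Forkhead and Sox factors, read as families, went both ways: 8 higher and 11 lower of 31 forkhead genes, and 2 and 4 of 16 Sox genes, or 4 higher without ΔHx High replicate 3. The forkhead shares were 25.8% higher and 35.5% lower, against 21.5% and 21.1% of all genes. The Sox shares, 12.5% higher and 25% lower, were under and near those of all genes, with 10 members not called. The 5 largest rises among forkhead genes were those of Foxj1, Foxa1, Foxa2, Foxd4 and Foxa3. Among these, Foxa2 is the gene whose protein set the gates, so its rise only checks the sort. Foxq1 was 77.1 ± 20.8 against 17.5 ± 5.58 (log2 2.09, SE 0.60). Foxp4 and Foxb1 were higher at 239 ± 40.4 against 102 ± 1.91 and 604 ± 139.6 against 398 ± 57.0. Foxb1 was not called without High replicate 1, High replicate 3, Neg replicate 2 or Neg replicate 3, with quantile normalisation or with equal totals (log2 0.42 to 0.63, adjusted p = 0.0549 to 0.156). Foxi3, of surface ectoderm, had 3 reads in High and 124 in Neg, a ratio of 48.7 (95% interval 16.3 to 239). Sox9, of the notochord and cartilage, was 3795, 3375 and 3256 in High and 313, 257 and 241 in Neg (log2 3.69, SE 0.16, adjusted p = 8.81e-12). Sox7, which shares a subgroup with Sox17, was lower at 3.22 ± 1.95 against 119 ± 25.4 (log2 -4.90, SE 0.70), the opposite direction to Sox17.

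Genes of DNA replication were lower in High by small and even steps, 23 of 24 with 0 higher and a median of -0.70. Rrm2, a subunit of ribonucleotide reductase, was 3632, 3246 and 3988 in High and 8684, 8364 and 8428 in Neg (log2 -1.23, SE 0.11, adjusted p = 3.73e-08), and Mcm3, of the replicative helicase, 3851, 3429 and 3275 and 7298, 6886 and 6631 (log2 -0.98, SE 0.08, adjusted p = 2.40e-08). Tyms was the member not called, at 1613 ± 97.0 against 1843 ± 26.9, but DESeq2 (-0.19, adjusted p = 0.0299), a filter of 50 (-0.19, adjusted p = 0.0461) and the fit without ΔHx High replicate 2 (-0.24, adjusted p = 0.037) called it lower. Mitosis genes were lower in 13 of 24 and higher in 0, but in 5 under quantile normalisation and in 6 with libraries scaled to equal totals, and 1 was higher without ΔHx Neg replicate 3. Ccna2, the cyclin of S phase and G2, was 2917 ± 173 against 5523 ± 374 (log2 -0.92, SE 0.13). Of 21 G1 regulators 8 were lower and 1 higher. Mycn, a transcription factor gene of the MYC family that drives growth, was 329.7, 238 and 337 in High and 3582, 3181 and 3103 in Neg (log2 -3.46, SE 0.13, adjusted p = 1.44e-12), and Ccne1, the cyclin of the G1 to S step, 1393 ± 59.1 against 3515 ± 130.5 (log2 -1.34, SE 0.09). Cdkn1b, which encodes the cyclin-dependent kinase inhibitor p27, was the higher member at 199, 208 and 244 and 67.0, 64.4 and 88.8 (log2 1.56, SE 0.24, adjusted p = 3.66e-05).

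Glycolysis genes were lower in 11 of 17 and higher in 1 (median -0.60). Ldha, lactate dehydrogenase, was 34498, 31661 and 31781 in High and 51659, 49215 and 47203 in Neg (log2 -0.60, SE 0.08, adjusted p = 1.03e-05), and Slc16a3, a lactate exporter, 1689 ± 142 against 4825 ± 385 (log2 -1.51, SE 0.17). The glucose transporter genes differed: Slc2a3 was higher at 32460.2, 32199.9 and 24621 and 11654, 10891 and 11623 (log2 1.37, SE 0.20, adjusted p = 2.11e-05), and Slc2a1 was not called at 18176 ± 1926 against 15701 ± 925. Of 22 cholesterol synthesis genes 1 was called higher and 0 lower, against 21.5% and 21.1% of all genes. In WT replicate 3, which entered the spread, the list summed to 26178, 27411 and 29490 in High, Mid and Neg. In WT replicates 1 and 2 it summed to 12531 to 16279. The count of higher genes was 6 with the High and Neg libraries of ΔHx fitted alone, and 0 without ΔHx High replicate 2 or ΔHx Neg replicate 2. Lysosome genes were higher in 10 and lower in 2 of 23, with Ctsc, a lysosomal protease, at 1711 ± 195 against 584 ± 95.7 (log2 1.56, SE 0.15). Hexa, a subunit of hexosaminidase, was lower at 399.7 ± 59.7 against 592 ± 81.5.

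Genes that respond to dissociation and stress were higher in 7 and lower in 1 of 15. Fos was 1791, 1689.9 and 1700.4 in High and 252, 522 and 853 in Neg (log2 1.84, SE 0.37, adjusted p = 0.000519), and Jun 3968, 3956 and 3163 and 769, 1303 and 1462 (log2 1.69, SE 0.23, adjusted p = 9.92e-06). Hsph1, a heat shock protein, was the lower member at 4451 ± 346 against 5938 ± 245. It was not called with quantile normalisation (log2 -0.12, adjusted p = 0.172). The summed level of the list was 13878 to 15306 in the High libraries and 10205 to 11755 in Neg. Without ΔHx High replicate 2 the list had 2 lower. Its part in the other differences was not tested.

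The same gate comparison in cells with intact FoxA2 was used to test whether the difference between High and Neg cells depended on the helix. No gene passed: 0 of 14711, or 0%, at an adjusted p under 0.05 for the difference between the genotypes' log2 changes, with 463 at an unadjusted p under 0.05 and a lowest adjusted p of 0.488. edgeR on the recovered reads called 0 and DESeq2 called 6, of which Tril and Dll1 had the more positive change in ΔHx and Dpp4, Mfsd7c, Mttp and Zmynd10 the less positive. The median standard error of such a difference was 0.321 on the log2 scale, with 3 libraries a group. Even differences of -3.91 for Mfsd7c and -2.31 for Kif12, given below, did not pass in the main fit. The count of 0 therefore does not show that the changes were equal. No gene was called in opposite directions in the 2 genotypes.

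The node and notochord genes had 4.66 and 4.75 and the ciliary motility genes 4.26 and 4.67, as median log2 changes in ΔHx and WT, the definitive endoderm genes 2.48 and 3.06, the Hox genes -4.15 and -4.09, and the lateral and cardiac mesoderm genes -2.92 and -3.32. Further apart were the cilia regulators at 2.22 and 3.37 and the neural and surface ectoderm genes at -2.23 and -1.44. The visceral endoderm genes had 0.72 and 1.46, with 9 called higher in ΔHx and 16 in WT. The 2 comparisons share no libraries. In each of these lists 0 members differed between the genotypes at an adjusted p under 0.05. Over all 40 lists, 7 had medians of opposite sign in the 2 genotypes, among them the hedgehog genes at 0.48 and -0.19, the primordial germ cell genes at -0.56 and 0.10 and the Sox genes at -0.19 and 0.16.

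**Figure D4:**
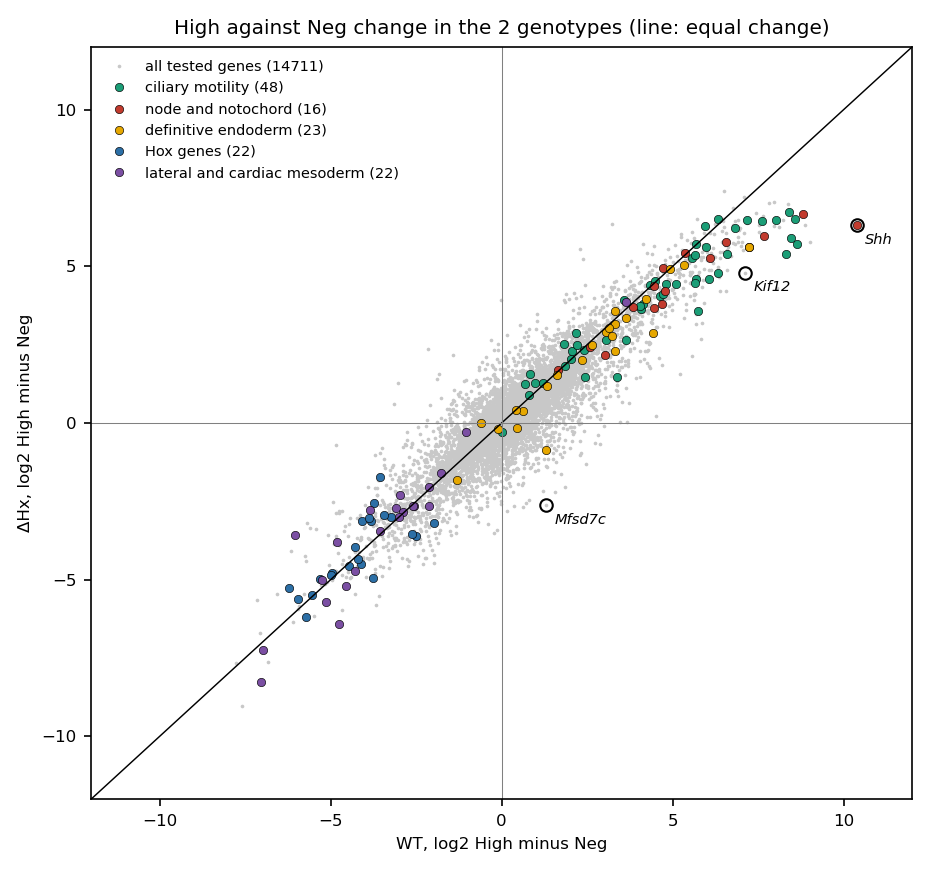
Log2 change of High against Neg cells in WT (horizontal axis) and in ΔHx (vertical axis), 1 point per gene, with members of 5 lists in colour and the line of equal change. Shh lies below the line at 10.39 in WT and 6.31 in ΔHx, and no gene passed the test of a difference between the genotypes.

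Among the genes nearest to the threshold, Shh had the smaller change in ΔHx cells: 6.31 against 10.39 in WT, a difference of -4.09, SE 0.88, unadjusted p = 0.000179, adjusted p = 0.525. Its High values were 3517, 2753 and 2847 in ΔHx and 2461, 1809 and 3893 in WT, and its Neg values were 45.8, 54.1 and 20.6 in ΔHx and 6.16, 0 and 0 in WT. The 2 genotypes' High libraries overlapped in range, and the Neg libraries of ΔHx were all higher than those of WT. Without WT Neg replicate 1 the difference of Shh and that of Enkur passed the threshold, and without WT High replicate 1 that of Fgf15 did. Kif12, a kinesin, and Mfsd7c, a membrane transporter, also had less positive changes in ΔHx, Kif12 4.80 against 7.12 (difference -2.31, SE 0.45, unadjusted p = 6.00e-05, adjusted p = 0.488) and Mfsd7c -2.61 against 1.30 (difference -3.91, SE 0.84, unadjusted p = 0.000163, adjusted p = 0.525). On the other side the log2 values in ΔHx and WT were -0.56 against -2.34 for Tril, -0.43 against -1.47 for Dll1, a Notch ligand, and 1.29 against 0.58 for Tyro3, a receptor tyrosine kinase. Foxa2 itself changed by 5.28 against 6.08 in WT, a difference of -0.81, SE 0.39, unadjusted p = 0.0539, adjusted p = 0.998.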

How the data were processed

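The deposited signal is the number of reads per gene over a size factor of the library. The submitters' processing notes name STAR 2.5.2a, HTSeq 0.6.1, DESeq, DESeq2 and mm10; the annotation and settings are not given in the sources used here. Values were whole multiples of 1 read's worth in each library (440964 of 440964 within 1e-06 reads), so reads were recovered from the deposited signal. The 5 counter lines were left out. Libraries had 12302196 to 17194136 reads in genes.

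Genes that reached 10 in 3 or more of 18 libraries were tested with limma 3.58.1 in R 4.3.3 on log2(value + 1), with a trend in the variance and 1 model of 6 group means, two-sided, with Benjamini-Hochberg adjustment. On the recovered reads, edgeR 4.0.16 called 3205 genes higher and 2973 lower, and DESeq2 1.42.0 called 3353 and 3156. Only the limma test of High against Neg was tried on simulated data, not edgeR, DESeq2 or the difference between genotypes. Exact 95% intervals were taken for ratios with 1 to 3 reads in a group. Gene positions came from GENCODE M21 on mm10. A further alternative to each choice is given with the closing observations.

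The comparison and the 40 gene lists were chosen with earlier results of these data known. Named were Foxa2, the 15 largest rises and 15 largest falls with a mean of at least 100 and groups that did not overlap, from each list up to 5 called members with the largest change and a mean of at least 20, members called against their list's direction, up to 3 not called, and the 3 genes each way nearest to a difference between genotypes. A few genes that this rule names are not reported here. Chosen after their values were seen were Apela, Bmp4, Cdh1, Cfc1, Dnah5, Dnmt3b, Dpp4, Drc1, Dsp, Esrp1, Etv2, Fgfr1, Fn1, Fzd5, Hhex, Hoxb1, Id2, Kdr, Lama5, Ldha, Lef1, Lefty1, Mnx1, Msgn1, Notum, Ntn1, Pdgfa, Pou5f1, Ptch1, Rfx3, Rsph4a, Slit3, T, Tekt1, Tnnt2, Trh, Vangl1 and Zmynd10. Roles within the Wnt and BMP lists were assigned after their values were seen. The labels do not say whether equal replicate numbers share a sort or litter, and no block was used in the main fit. SMART-Seq2 does not keep strand.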

Additional observations from a re-analysis of the deposited data

How the results depend on the processing

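The counts of 3160 higher and 3103 lower genes stayed within 1.5 times under every alternative except a test against a 2-fold change, which asks for more than a change and called 869 higher and 326 lower. Leaving out 1 ΔHx library gave 2721 to 2983 higher and 2582 to 2870 lower, and 4397 of the 6263 calls held in all 6 of these fits. Other fits gave 3132 and 3073 with a pseudocount of 0.5, 3215 and 3121 with 5, 3105 and 3025 without a filter, 2795 and 2838 with a filter of 50, 2628 and 3327 with quantile normalisation, 3053 and 2312 with equal totals, and 3299 and 3269 with the compared libraries alone. Equal totals without Rn45s gave 3776 and 2486 and moved the median log2 change of all genes to 0.111, with 60.3% of calls higher in place of 50.5%. No call turned to the opposite direction in any of these fits.

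With the replicate number as a block 3410 genes were higher and 3355 lower. Same-numbered ΔHx High and Neg libraries had correlations of 0.0437, 0.0369 and 0.0156 in their deviations from the group means. Those of WT were 0.0890, 0.0735 and 0.119. In both genotypes each High library correlated best with its own number. The summed level of the sex-linked genes was highest in replicate 3 in every ΔHx gate and lowest in replicate 3 in every WT gate. In WT the cholesterol sums, given above, also went with the replicate number across gates. The main fit does not take this into account. The block also called Ttr, Dnah8 and Dnah7a higher and Tbx6, Dnaaf2 and Tyms lower, none of which was called in the main fit. For the difference between genotypes, limma with the block called 0 genes. It gave 718 genes at an unadjusted p under 0.05 and a lowest adjusted p of 0.0946, against 463 and 0.488 in the main fit.

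For that difference, DESeq2 called 2 genes with a more positive and 4 with a less positive change in ΔHx. Leaving out 1 library gave 0 to 1 and 0 to 2. Afp and Cubn, neither of them called, changed sign: Afp to -0.047 with quantile normalisation and to between -0.27 and 1.01 when 1 library was left out, and Cubn ranged from -0.71 to 0.0888 when 1 library was left out. Depth limits what can be said of genes with few reads, such as the Hox genes: with a filter of 50 only 9 of them were left as lower. The cause of these changes was not tested.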
